A study of Mus musculus with 36 samples.

Results

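The RNA-seq data compared here are 3 libraries of RAW264.7 cells given the peptide 65–79*SE together with IFNγ and 3 libraries of the same cells given PBS, all from replicates 1 to 3, which are 6 of the 36 libraries of the series. RAW264.7 is a mouse macrophage line raised from a BALB/c mouse with Abelson leukaemia virus. The peptide is a 15-mer copied from the human HLA-DRβ chain that carries the shared epitope (SE), a sequence in HLA-DRB1 alleles linked to risk of rheumatoid arthritis. It was given at 100 µg/ml with 5 ng/ml IFNγ for 72 h. The third group of the same set, 65–79*PE with IFNγ at the same doses, carries the protective epitope (PE) of other alleles and differs from 65–79*SE at a few residues. The groups are called SE, PE and PBS below, and all of them are the same unmodified cell line. The titles of the PBS libraries name IFNγ too, while their treatment label gives PBS alone and the methods describe cells with or without the cytokine. These sources do not settle whether PBS cells received IFNγ. In the counts, IFNγ response genes such as Ciita, Cxcl9 and Gbp2 were almost silent in PBS and high in SE (values below). Others, such as Irf1, were expressed in PBS and higher in SE. SE against PBS is thus a comparison of cytokine plus peptide with PBS cells that lack the response in such silent genes. The part of each agent cannot be told apart in it. The study describes 6 biological replicates from 2 independent experiments, without saying which replicate came from which. Replicates 1 to 3 may thus all come from 1 experiment. The p-values measure the spread between these libraries, which may be the spread within 1 experiment only.

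IFNγ is the main macrophage-activating cytokine of T and NK cells. Its receptor signals through the kinases JAK1 and JAK2 to transcription factors that bind gamma-activated sites (TTCNNNGAA) and induce IRF1, which binds interferon-stimulated elements built on spaced GAAA repeats. The genes that follow load peptides on MHC class I and II, attack the vacuoles of intracellular microbes (guanylate binding proteins and immunity-related GTPases), recruit T cells (CXCL9, CXCL10, CXCL11) and make nitric oxide (NOS2). This state is often called M1.

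Total counts ran from 27.99 to 33.83 M in the 9 libraries of replicates 1 to 3, and 0 counts of a gene allow a level of up to 3 counts, or 0.0887 to 0.107 CPM (counts per 1e+06 counts), at 95% confidence for counting error only. Macrophage identity genes summed to 9670 to 11300 CPM in PBS and 8150 to 8750 CPM in SE, with the transcription factor Spi1 (PU.1) at 296, 345 and 348 CPM in PBS and 315, 331 and 338 CPM in SE. Marker lists of B, NK, T, neutrophil, dendritic, fibroblast, epithelial and endothelial cells each summed to at most 2.04 CPM in any of the 6 libraries, and of their 43 genes 6 passed the low count filter. The first PBS library stood apart: 180 of 9144 genes with a mean of at least 10 CPM lay over 1.5-fold from the mean of the other 2 PBS libraries, against 17 and 42 for those 2 and 6 to 15 for the SE libraries. Without it, 3366 genes were called in SE against PBS, in place of 3484. Mitochondrially encoded transcripts took 2.53 to 3.56% of counts in PBS and 1.62 to 1.95% in SE. Libraries labelled SE in replicates 4 to 6 did not show the response described here (last paragraphs) and enter none of the SE against PBS values.

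The promoters of 6 genes are shown to place the motifs named above. They were taken in a fixed order of genes from RefSeq (GRCm38.p6), 250 bases before to 50 after a start site, on the strand of the gene. Capitals mark a match, on either strand, to TTCNNNGAA or to a GAAA pair (GAAA, any 2 bases, GAAA). Nos2 and Ciita had no entry.
Irf1, chr11:53769764-53770063, plus: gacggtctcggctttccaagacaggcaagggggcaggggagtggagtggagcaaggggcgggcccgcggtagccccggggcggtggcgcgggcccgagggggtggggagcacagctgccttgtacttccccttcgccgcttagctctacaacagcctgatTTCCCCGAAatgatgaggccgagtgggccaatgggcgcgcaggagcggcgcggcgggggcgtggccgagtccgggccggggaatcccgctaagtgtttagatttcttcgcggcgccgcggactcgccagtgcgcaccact
Irf1, second start, chr11:53770223-53770522, plus: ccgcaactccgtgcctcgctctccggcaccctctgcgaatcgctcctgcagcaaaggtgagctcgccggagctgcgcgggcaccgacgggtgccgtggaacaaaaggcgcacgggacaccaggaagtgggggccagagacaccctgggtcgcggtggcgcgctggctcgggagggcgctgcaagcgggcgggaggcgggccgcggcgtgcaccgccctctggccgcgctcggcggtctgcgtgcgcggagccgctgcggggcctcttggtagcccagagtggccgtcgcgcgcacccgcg
Gbp2, chr3:142620413-142620712, plus: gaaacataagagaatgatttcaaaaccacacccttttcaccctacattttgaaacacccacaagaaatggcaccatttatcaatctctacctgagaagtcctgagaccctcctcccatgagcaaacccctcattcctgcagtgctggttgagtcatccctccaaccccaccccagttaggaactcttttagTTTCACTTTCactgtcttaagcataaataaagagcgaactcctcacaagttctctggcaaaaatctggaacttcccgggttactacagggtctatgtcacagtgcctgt
Cxcl9, chr5:92328030-92328329, minus: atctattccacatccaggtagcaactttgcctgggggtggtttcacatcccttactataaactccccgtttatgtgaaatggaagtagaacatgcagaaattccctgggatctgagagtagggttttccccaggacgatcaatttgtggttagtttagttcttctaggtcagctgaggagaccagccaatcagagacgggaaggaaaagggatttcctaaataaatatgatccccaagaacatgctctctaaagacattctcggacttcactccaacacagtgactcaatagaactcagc
Cxcl10, chr5:92348840-92349139, minus: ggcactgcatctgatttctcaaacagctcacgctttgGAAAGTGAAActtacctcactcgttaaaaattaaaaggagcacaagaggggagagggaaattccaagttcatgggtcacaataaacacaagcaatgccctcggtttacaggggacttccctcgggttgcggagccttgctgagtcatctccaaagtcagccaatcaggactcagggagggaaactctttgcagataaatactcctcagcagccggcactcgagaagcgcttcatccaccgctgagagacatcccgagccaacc
Psmb9, chr17:34187281-34187580, minus: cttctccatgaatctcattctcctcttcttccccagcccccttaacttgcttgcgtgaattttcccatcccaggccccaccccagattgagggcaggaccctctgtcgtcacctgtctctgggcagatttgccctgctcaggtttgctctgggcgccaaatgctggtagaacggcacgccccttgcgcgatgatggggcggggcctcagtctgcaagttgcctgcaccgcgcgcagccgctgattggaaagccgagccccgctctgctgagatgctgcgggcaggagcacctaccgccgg
Ctsk, chr3:95498960-95499259, plus: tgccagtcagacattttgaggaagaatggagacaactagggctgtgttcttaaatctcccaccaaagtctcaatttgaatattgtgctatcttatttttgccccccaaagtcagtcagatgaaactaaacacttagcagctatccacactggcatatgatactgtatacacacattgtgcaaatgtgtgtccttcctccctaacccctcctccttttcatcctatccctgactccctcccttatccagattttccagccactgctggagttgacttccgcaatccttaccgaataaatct

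The upstream Irf1 window holds 1 TTCNNNGAA match, and the Gbp2 and Cxcl10 windows hold 1 GAAA pair each, that of Gbp2 on the opposite strand. The Cxcl9, Psmb9 and Ctsk windows hold neither in these letters. Among 11965 promoters of the genes tested (9404 genes matched by symbol), 3.38% held a GAAA pair on either strand. The share was 7.41% of 1606 promoters of genes called higher in SE, 18.6% of 145 promoters of those over 8-fold higher, 2.26% of 1330 promoters of genes called lower and 2.84% where no call was made. For TTCNNNGAA the shares were 6.88%, 8.28%, 14.5%, 6.47% and 6.69% in the same order. GGGA and CC with any 4 bases between them, as in the κB site, were in 26.3% of promoters of genes tested and 28.3% of those called higher, and CCAAT was in 38.1% and 37.2%. A window can hold several motifs, also at overlapping bases. These shares are a description of the windows, not of binding.

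Which genes differ between macrophages given 65–79*SE with IFNγ and PBS macrophages was tested on 15343 genes. A gene was called at an adjusted p under 0.05 and a fold over 1.5 (edgeR quasi-likelihood test, Benjamini-Hochberg). In all, 3484 genes (22.7%) were called, 1935 higher (12.6%) and 1549 lower (10.1%). Rises were larger than falls: 187 genes rose by 8-fold or more by the fitted value and 25 fell by as much, while 745 of the rises and 971 of the falls were under 2-fold. Of the genes called higher, 86 had at most 3 counts in every PBS library, and these passed the low count filter through the treated groups. Genes called higher took 7.72 to 8.14% of all counts in PBS and 17.3 to 17.6% in SE. Genes called lower took 10.7 to 12.4% and 5.6 to 5.91%. Groups did not overlap for 4285 genes (27.9%) with every SE library above every PBS library and 4361 (28.4%) with every SE library below, the background for such statements on single genes.

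**Figure D1:**
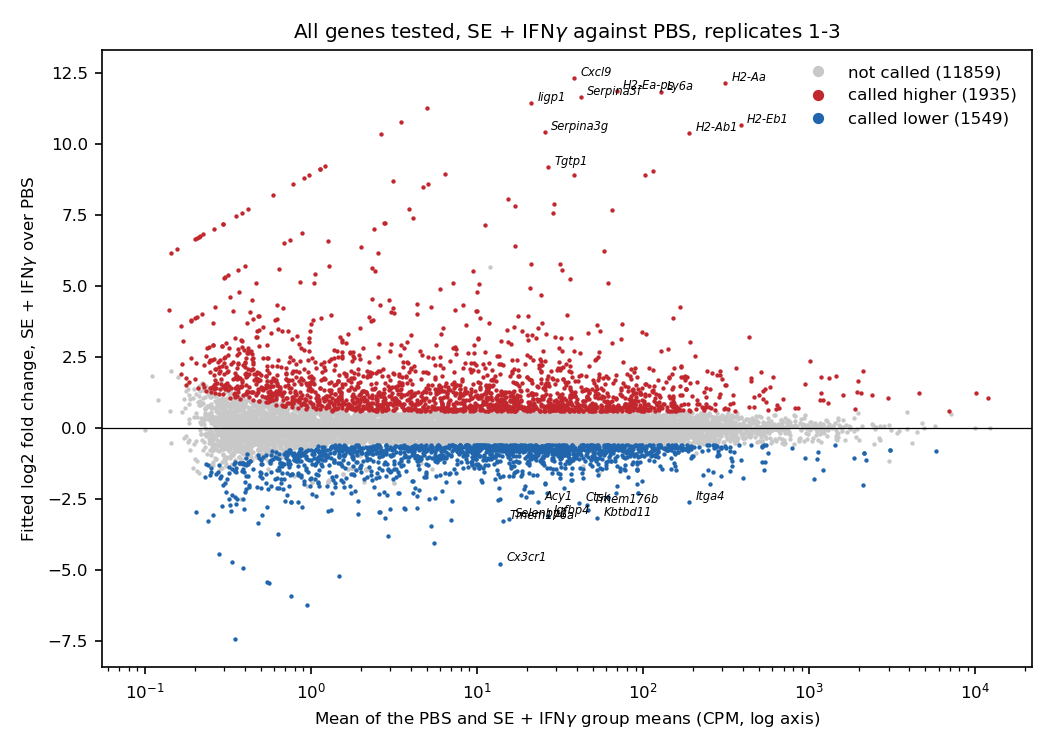
Each of 15343 genes by its mean level over PBS and SE (x axis, CPM, log scale) and its fitted log2 fold change in SE over PBS (y axis), with 1935 genes called higher in red, 1549 called lower in blue and the others in grey. The 10 largest rises of the naming rule and 9 of its falls are labelled, from Cxcl9 at the top to Cx3cr1 at the bottom. Fitted values of genes at or near 0 counts in PBS depend on the prior count of the fit.

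The largest rises were in genes that were almost silent in PBS. H2-Aa (chromosome 17, 34282744 to 34287823, minus strand), the α chain of the MHC class II molecule I-A, was at 0.155, 0.136 and 0.105 CPM in PBS and at 587, 603 and 675 CPM in SE, a log2 fold change of 12.15 ± 0.33 (standard error, adjusted p = 1.97e-18). Cxcl9 (chromosome 5, 92321347 to 92328079, minus strand), a chemokine that draws T cells through CXCR3, was at 0.0309, 0 and 0 CPM in PBS, and at 80.8, 68.4 and 81.99 CPM in SE, at least 770.1-fold higher with the PBS libraries set to the floor of 3 counts each. No library of one group overlapped the other for either gene. The other genes of the 10 largest rises were H2-Eb1, H2-Ab1 and H2-Ea-ps of MHC class II, Ly6a (the surface antigen Sca-1), the serine protease inhibitors Serpina3f and Serpina3g, and the immunity-related GTPases Iigp1 and Tgtp1. Ly6a went from 0.124, 0.0340 and 0.0351 to 244, 252 and 268 CPM, and Serpina3g from 0.0619, 0.0340 and 0 to 55.7, 45.96 and 52.2 CPM, at least 512-fold.

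Among the largest falls, Cx3cr1 (chromosome 9, 119901616 to 120069879, minus strand), the receptor for fractalkine, went from 15.3, 32.5 and 31.8 CPM in PBS to 0.965, 1.17 and 0.784 CPM in SE (-4.77 ± 0.36 on the log2 scale, adjusted p = 1.33e-06). Itga4, the α4 integrin chain, went from 348, 309.5 and 320.0 to 51.9, 52.4 and 58.05 CPM (-2.59 ± 0.07), the most abundant of the 10 in PBS. The neighbouring membrane protein genes Tmem176a and Tmem176b fell together, by 3.28 and 2.72 on the log2 scale. Others were Kbtbd11 (85.1, 100.4 and 101 to 10.6, 10.5 and 10.6 CPM), Igfbp4 (a binding protein of insulin-like growth factors, 48.9, 50.2 and 43.5 to 6.72, 4.49 and 5.58 CPM), the protease Ctsk, the aminoacylase Acy1 and Selenbp1. Selenbp1 shows how the first PBS library differed: it was at 8.29, 33.1 and 42.6 CPM in the 3 PBS libraries and 2.83, 3.05 and 3.14 CPM in SE.

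**Figure D2:**
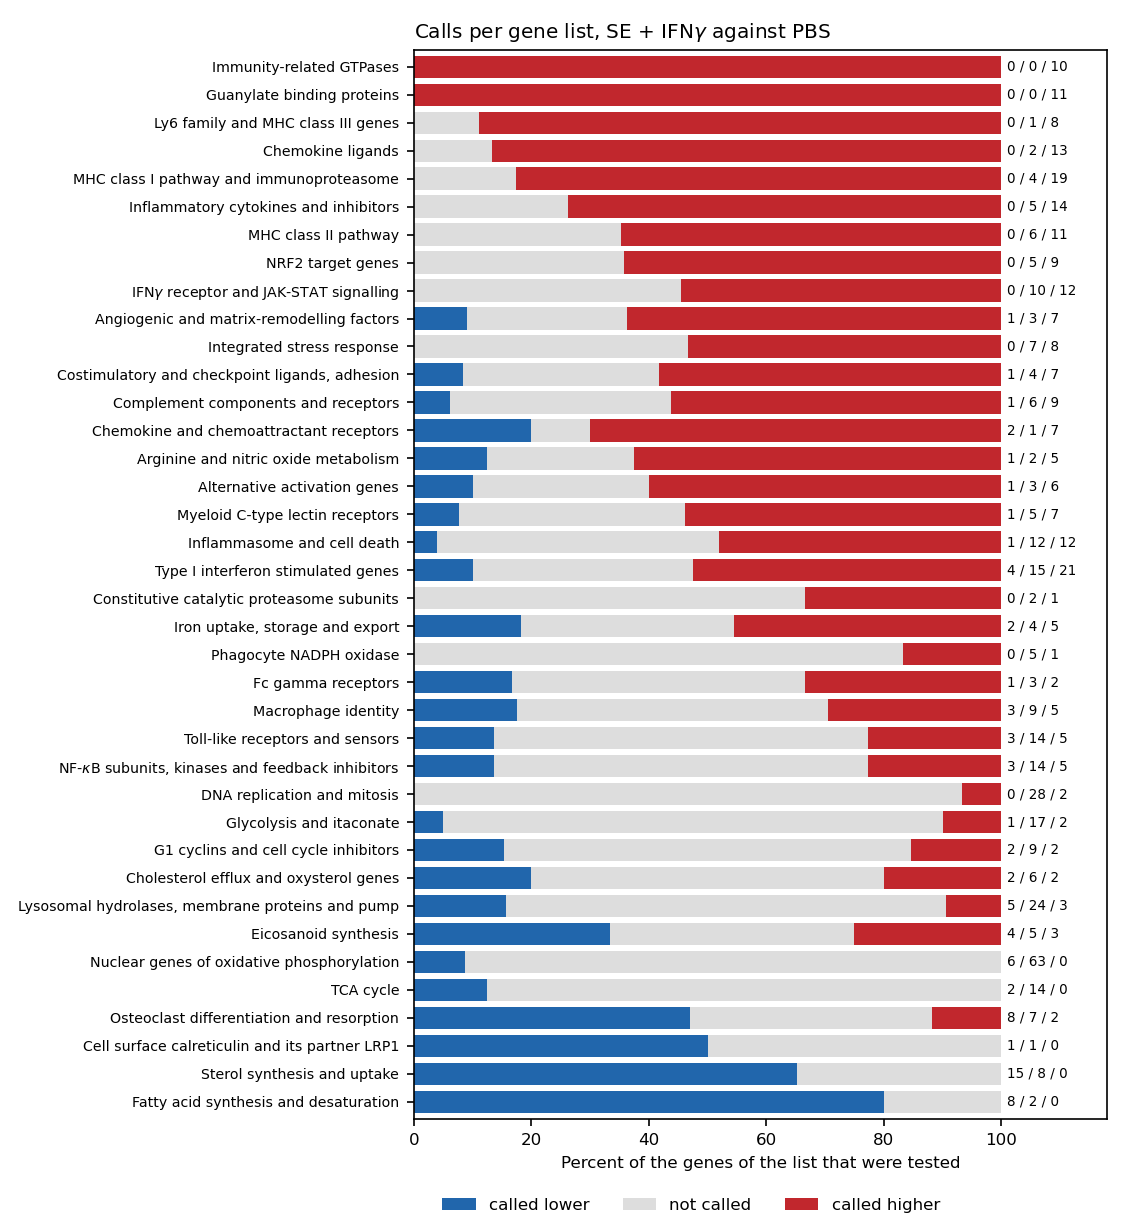
For 38 gene lists, the percent of tested genes called lower (blue), not called (grey) and called higher (red) in SE against PBS, with the 3 counts at the right in that order. Both GTPase families are red throughout, and sterol and fatty acid synthesis are mostly blue with no red.

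Components of the IFNγ signal itself rose by less. Of 22 genes of the receptor, JAK-STAT factors and their regulators, 12 were called higher and none lower, with a median log2 fold change of 0.62 against -0.01 over all genes tested. The receptor genes Ifngr1 and Ifngr2 and the kinase Jak2 were not called. Irf1 (chromosome 11, 53770014 to 53778374, plus strand) rose from 16.7, 17.96 and 16.2 to 72.5, 76.8 and 83.02 CPM (2.19 ± 0.08, adjusted p = 3.43e-12) with no overlap between the groups, and the myeloid factor Irf8 from 71.9, 78.6 and 86.7 to 158, 143 and 156 CPM (0.95 ± 0.07). Batf2 (3.05) and Irf7 (2.15), both transcription factors of interferon responses, also rose. So did Socs1, the inhibitor of JAK kinases, from 0.526, 1.05 and 1.30 to 3.39, 3.45 and 3.50 CPM.

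MHC class II genes were mostly called higher. Of 17 genes of the pathway, 11 were called higher and none lower, with a median of 3.09. The 6 others were the proteases Ctss and Lgmn, the reductase Ifi30 and the RFX subunits Rfx5, Rfxap and Rfxank, which bind class II promoters. Ciita, the coactivator that controls the class II genes, was at 0.0309, 0 and 0.0351 CPM in PBS and 10.99, 9.14 and 10.2 CPM in SE, at least 101-fold higher. H2-Ab1, the β chain of I-A, went from 0.371, 0.204 and 0.246 to 347, 389 and 395 CPM (10.39 ± 0.25). Cd74, the invariant chain, was already abundant in PBS at 727, 944 and 870.4 CPM and reached 3211, 3428 and 3522 CPM (2.00 ± 0.08). H2-Ea-ps is named a pseudogene after the reference strain, C57BL/6, whereas BALB/c cells carry a functional gene there. It rose from 0, 0.0340 and 0.0703 to 131, 127 and 158 CPM, at least 1383-fold. Polymorphic H2 genes of this line are counted on another strain's sequence, which can lower their counts in every group alike.

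Most MHC class I genes rose. In this list of 23 genes of class I chains, peptide transport and the immunoproteasome, 19 were called higher and none lower (median 1.68). The 4 not called were general chaperones and tapasin (Tapbp, Canx, Calr and Pdia3). Nlrc5, the class I counterpart of CIITA, went from 31.5, 31.2 and 33.5 to 109, 103 and 96.7 CPM (1.68 ± 0.06). The peptide transporter Tap1 rose more, from 34.5, 34.6 and 37.8 to 241, 248 and 249 CPM (2.79 ± 0.06), than B2m, the light chain, which went from 728, 686 and 689 to 1655, 1573 and 1739 CPM (1.24 ± 0.06). In the proteasome, the interferon-induced subunits Psmb9 (2.98 ± 0.07) and Psmb8 (1.89 ± 0.07) rose. Of the 3 catalytic subunits of the constitutive proteasome, Psmb7 was called higher (0.65 ± 0.05), while Psmb5 was at 94.99, 105 and 96.6 CPM in PBS and 95.6, 109.8 and 106 CPM in SE.

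All 11 guanylate binding proteins and all 10 immunity-related GTPases of the lists were called higher, with medians of 6.41 and 6.15. Both families coat and break the vacuoles of intracellular parasites and bacteria. Gbp2 (chromosome 3, 142620602 to 142638008, plus strand) was at 0.495, 0.374 and 0.422 CPM in PBS and 245, 204 and 235 CPM in SE (9.03 ± 0.20, adjusted p = 1.02e-17). Gbp2b, its near copy, behaved alike at 0.371, 0.510 and 0.386 and 222, 174 and 214 CPM, and Gbp5 rose at least 127-fold, to 13.1, 11.9 and 13.3 CPM. Among the GTPases, Iigp1 went from 0, 0.0340 and 0 to 39.7, 40.97 and 46.5 CPM, at least 424-fold. Irgm1, which regulates the other members, was expressed in PBS and rose least among those described here, from 47.3, 41.9 and 41.98 to 119, 114 and 124 CPM (1.44 ± 0.07). Tgtp1 and Tgtp2 are near-identical copies, at 50.1, 49.6 and 60.7 and 72.2, 71.8 and 84.7 CPM in SE, and their values may share reads. With medians taken over genes at their lower bounds, the GTPase median was 4.37 and that of the guanylate binding proteins 6.41.

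**Figure D3:**
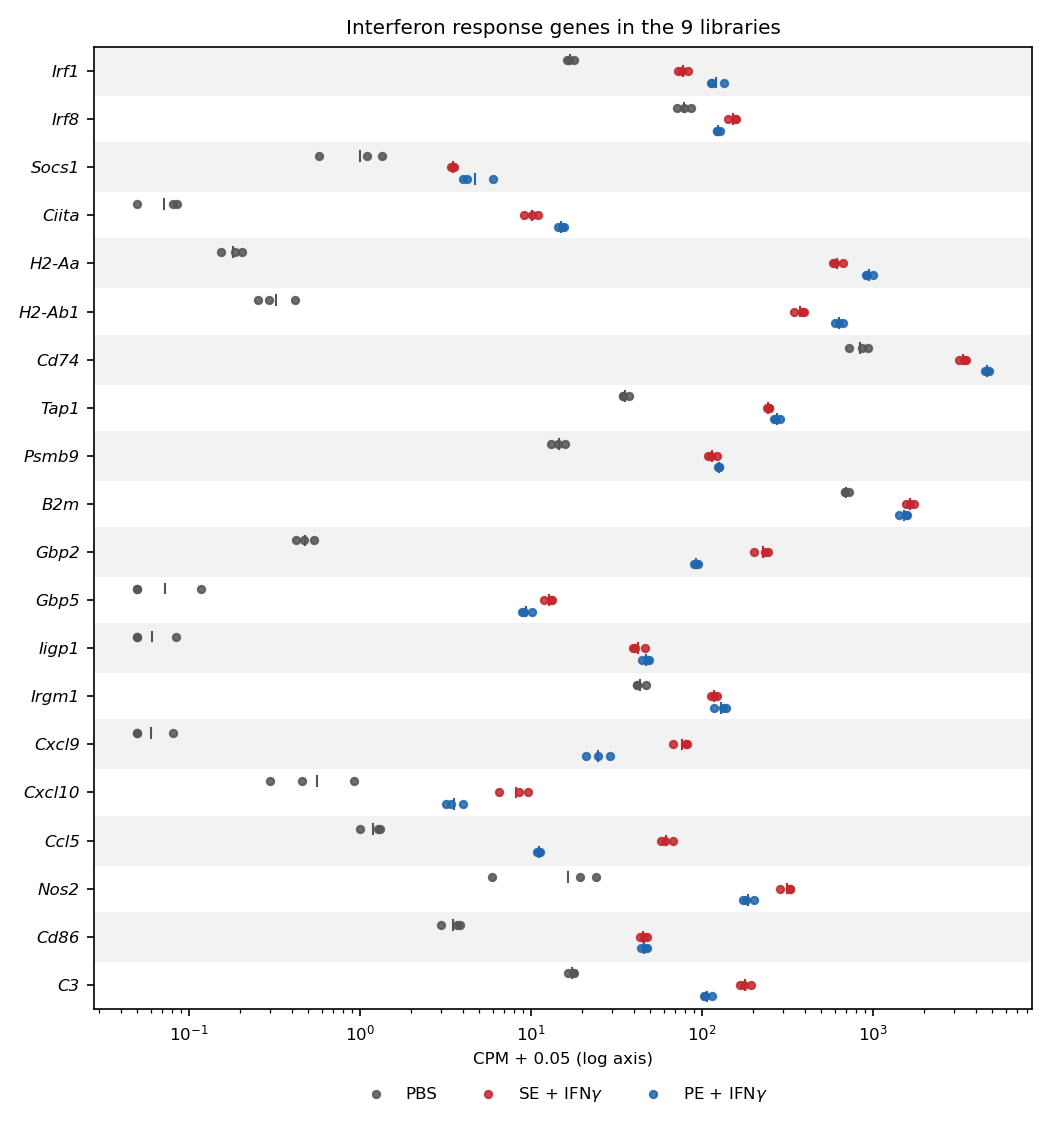
Levels of 20 interferon response genes (CPM plus 0.05, log axis) in each library of PBS (grey), SE (red) and PE (blue), replicates 1 to 3, with short bars at group means. Every SE library lies above every PBS library for each gene shown, and SE and PE lie close together for most, with Cxcl9, Cxcl10, Ccl5, C3 and Gbp2 called higher in SE and Irf1, H2-Aa and H2-Ab1 called higher in PE.

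Genes best known from type I interferon moved less uniformly. Of 40, 21 were called higher, 4 lower and 15 not, with a median of 0.65. Rsad2 (viperin) rose from 1.89, 2.55 and 2.04 to 36.2, 28.1 and 34.6 CPM (3.93 ± 0.14), Zbp1, a sensor of Z-form nucleic acids, from 1.33, 1.33 and 1.37 to 65.8, 59.3 and 66.6 CPM (5.57 ± 0.11), and Isg15 from 10.2, 12.2 and 14.5 to 46.1, 54.1 and 51.02 CPM. Oasl2 rose as well (3.51 ± 0.12). Those called lower were Slfn5 (34.2, 34.4 and 32.1 to 17.5, 16.5 and 14.4 CPM), the double-stranded RNA kinase Eif2ak2 (33.9, 31.3 and 32.4 to 19.9, 19.2 and 18.9 CPM), the RNA sensor Ddx58 (-0.72 ± 0.08) and Oas2. Every SE library was below every PBS library for Slfn5, Eif2ak2 and Ddx58.

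Chemokines were among the most uniform lists. Of 20 chemokine ligands 15 passed the low count filter, and 13 of these were called higher and none lower (median 2.81). Ccl5, which attracts T cells and monocytes (chromosome 11, 83525778 to 83530518, minus strand), was at 0.959, 1.22 and 1.26 CPM in PBS and 68.3, 60.7 and 57.6 CPM in SE (5.76 ± 0.14, adjusted p = 2.96e-15). Cxcl10 went from 0.248, 0.408 and 0.878 to 8.50, 6.53 and 9.59 CPM (4.02 ± 0.33), Ccl7 from 0.309, 0.340 and 0.562 to 14.8, 13.3 and 13.8 CPM, and the monocyte chemokine Ccl2 from 10.5, 12.96 and 13.4 to 52.7, 52.2 and 56.1 CPM (2.13 ± 0.09). The neutrophil chemokine Cxcl2 varied in PBS, from 7.09, 12.2 and 15.7 CPM to 77.1, 64.3 and 74.6 CPM in SE. Receptors went both ways: 7 of 10 tested were higher and 2 lower. Cxcr4, the receptor for CXCL12, rose from 9.19, 7.55 and 7.66 to 22.1, 18.4 and 18.3 CPM (1.26 ± 0.11), and Ccrl2, which holds chemerin at the surface, from 6.99, 4.32 and 5.90 to 56.5, 47.7 and 54.98 CPM. Cx3cr1 and Cxcr3 were the 2 called lower.

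Of 25 cytokines and their inhibitors 19 were tested, and 14 were called higher and none lower (median 1.26). Tnf went from 21.1, 31.7 and 30.2 to 68.1, 64.8 and 66.04 CPM (1.26 ± 0.11). Il1b and Il6 stayed scarce: Il1b was at 0.0619, 0.136 and 0.0351 CPM in PBS and 0.996, 0.536 and 1.15 CPM in SE (3.46 ± 0.69), and Il6 at 0.0928, 0.238 and 0.105 and 1.90, 2.31 and 2.29 CPM (3.87 ± 0.41). Antagonists rose too. Il1rn, which blocks the IL-1 receptor, was more abundant than either, at 150.1, 142 and 178 CPM in PBS and 304, 238 and 295 CPM in SE (0.83 ± 0.11), and Il18bp, which binds IL-18, went from 0.774, 0.544 and 0.422 to 18.6, 19.1 and 22.2 CPM (5.08 ± 0.22). Csf1, the macrophage growth factor, rose from 3.93, 5.10 and 5.41 to 49.3, 49.8 and 43.5 CPM. Il10, Il12a, Il12b, Csf2, Tnfsf10 and Ifnb1 did not pass the low count filter.

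The NF-κB system showed no common direction at 72 h. Of 22 subunits, kinases and feedback inhibitors 5 were called higher, 3 lower and 14 not (median 0.27). The inhibitor-like cofactor Nfkbiz rose from 3.84, 5.00 and 5.16 to 22.5, 19.1 and 25.3 CPM (2.26 ± 0.14). Relb was at 22.6, 28.2 and 27.3 CPM in PBS and 42.5, 41.6 and 40.9 CPM in SE (0.68 ± 0.09), a change that was 0.58 and under the fold threshold without PBS replicate 1. Inhibitors went both ways: Nfkbid (-1.02 ± 0.11), Nfkbie (-0.92 ± 0.11) and Tnip3 (-0.82 ± 0.09) fell, while Nfkbib, which encodes IκBβ (0.82 ± 0.14), and Tnip1 (0.73 ± 0.06) rose. Nfkbia, the main inhibitor IκBα, was at 54.3, 60.8 and 62.6 CPM and 39.7, 40.5 and 45.6 CPM, short of the fold threshold. Among 22 tested Toll-like receptors, adaptors and sensors, 5 were higher and 3 lower, the same counts as in the NF-κB list. Over all genes tested 12.6% were called higher and 10.1% lower. Tlr9, which senses CpG DNA, rose from 6.59, 6.43 and 8.04 to 39.7, 33.9 and 35.7 CPM (2.38 ± 0.11), and Tlr2, which senses lipopeptides, fell from 115, 109 and 105 to 50.5, 57.1 and 60.3 CPM (-0.97 ± 0.07). The endotoxin coreceptor Cd14 was at 504, 542 and 516 CPM and 451, 459 and 483 CPM and was not called.

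Of 8 genes tested in the list of nitric oxide synthesis and arginine supply, 5 were called higher and 1, Arg2, lower. Nos2 (chromosome 11, 78920787 to 78960254, plus strand), the inducible synthase, was at 5.88, 19.5 and 24.2 CPM in PBS and 329.6, 289 and 329 CPM in SE (4.27 ± 0.42, adjusted p = 3.32e-04), with the lowest value in the first PBS library. Ass1, which rebuilds arginine from citrulline, rose from 16.5, 22.2 and 18.1 to 194, 179 and 193 CPM (3.32 ± 0.09). The arginine transporter Slc7a2 went from 0, 0 and 0.0351 to 0.623, 0.770 and 0.482 CPM, at least 6.25-fold, and the polyamine enzyme Odc1 from 163, 159 and 169.8 to 498, 409 and 496 CPM (1.51 ± 0.07). The 2 not called were the lyase Asl, which also serves to rebuild arginine, at 44.6, 54.2 and 51.4 CPM in PBS and 52.7, 56.4 and 51.7 CPM in SE, and the arginine transporter Slc7a1, at 226, 214 and 237 and 272, 253 and 262 CPM. Arg1 did not pass the low count filter. Acod1, which makes itaconate from a TCA cycle intermediate, went from 15.6, 22.9 and 20.02 to 314, 234 and 304 CPM (3.87 ± 0.15).

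In the list of glycolysis and itaconate, 2 of 20 genes (Acod1 and the hexokinase Hk3) were higher and 1 (Ldha) lower. Beside this, 12.6% of all genes tested were called higher and 10.1% lower. Ldha was at 1252, 2003 and 1937 CPM in PBS and 1148, 1120.0 and 1164 CPM in SE (-0.60 ± 0.15). Its call was lost without SE replicate 2 (-0.58), PBS replicate 2 (-0.47) or PBS replicate 3 (-0.49), with a replicate block (-0.58, under the fold threshold) and with no low count filter (adjusted p = 0.0582), and without PBS replicate 1 5 genes of the list were lower in place of 1. The glucose transporter Slc2a1 shows the same PBS library apart, at 93.9, 194 and 225 CPM in PBS and 306, 294 and 314 CPM in SE (0.84 ± 0.29, adjusted p = 0.0549). It was called higher by DESeq2 (adjusted p = 0.0058), with a minimum of 10 counts in every library (0.0482), among protein-coding genes only (0.0399) and without PBS replicate 3 (0.0253). In the TCA cycle, 2 of 16 genes were lower and none higher, of which Idh2 went from 143, 151 and 152 to 65.2, 69.98 and 70.3 CPM (-1.12 ± 0.06), and without SE replicate 1, SE replicate 2 or PBS replicate 1 the count was 1. Citrate synthase (Cs) was at 323, 339.9 and 363 and 325, 331 and 337 CPM. Of 69 nuclear genes of oxidative phosphorylation 6 were lower and none higher, with a median of -0.2. Over all genes tested 10.1% were called lower, and the counts of both lists lie near that share. Ndufa4 went from 105, 95.3 and 89.5 to 53.1, 57.5 and 54.5 CPM (-0.81 ± 0.07). The 6 became 10 on library totals without TMM and 3 without PBS replicate 2.

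Most genes of lipid synthesis fell. In the sterol list, 15 of 23 genes tested were called lower and none higher, with a median of -0.9, and in the fatty acid list 8 of 10 were lower and none higher, with a median of -0.97. These genes are targets of the SREBP transcription factors. Squalene epoxidase (Sqle) went from 71.4, 63.3 and 66.7 to 25.9, 27.3 and 31.1 CPM (-1.26 ± 0.08, adjusted p = 3.26e-09). In fatty acid synthesis, Fasn went from 434, 382 and 358 to 130.3, 142 and 131 CPM (-1.54 ± 0.07) and the desaturase Scd2 from 311, 423 and 469 to 90.7, 103 and 113 CPM (-1.97 ± 0.14). Cholesterol export was mixed: Abca1, an exporter, fell from 13.6, 12.8 and 11.7 to 6.91, 5.86 and 6.21 CPM, Nr1h3, the nuclear receptor LXRα, rose from 6.44, 6.09 and 6.39 to 9.93, 10.2 and 11.1 CPM, and Apoe was not called. Ch25h did not pass the low count filter.

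Genes of osteoclasts, bone-resorbing cells that RAW264.7 can form, were lower more often than higher: 8 of 17 tested were lower and 2 higher (median -0.45). Ctsk (chromosome 3, 95499256 to 95509362, plus strand), the collagen-degrading protease, was at 73.6, 71.2 and 67.8 CPM in PBS and 9.65, 12.9 and 11.5 CPM in SE (-2.64 ± 0.10, adjusted p = 3.22e-12). Acp5, tartrate-resistant acid phosphatase, went from 54.1, 57.8 and 62.2 to 15.4, 16.4 and 16.8 CPM (-1.84 ± 0.08), the gelatinase Mmp9 from 8.08, 13.1 and 9.91 to 4.67, 4.52 and 5.13 CPM (-1.11 ± 0.16), and the proton pump subunit Atp6v0d2 from 164, 128 and 129.6 to 87.8, 72.6 and 76.3 CPM (-0.83 ± 0.11). The 2 higher were the fusion gene Ocstamp and Jdp2, of which Jdp2 (0.66) was under the fold threshold without PBS replicate 1 (0.58). Lysosomal genes at large were mixed, with 3 of 32 higher and 5 lower, near the 12.6% higher and 10.1% lower of all genes tested. Ctsc, which activates granule proteases, rose from 56.96, 49.96 and 54.1 to 134, 137 and 160.2 CPM, Gusb (β-glucuronidase) fell from 545, 459.6 and 469.9 to 169, 177 and 178 CPM, and the abundant cathepsin Ctsb was at 5706, 5449.6 and 5355 CPM in PBS and 5944, 5759.6 and 5811 CPM in SE.

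Complement genes rose in 9 of 16 tested and fell in 1. The C1q chains went from near 0 to a clear level: C1qc was at 0.186, 0.0680 and 0.0703 CPM in PBS and 29.8, 31.5 and 30.1 CPM in SE (8.05 ± 0.37), and C1qb at 0.155, 0.170 and 0.105 and 33.9, 34.6 and 32.5 CPM. C3, the central component, rose from 17.8, 17.7 and 16.5 to 195, 168 and 176 CPM (3.37 ± 0.07), and factor B (Cfb) from 0.0309, 0 and 0 to 2.15, 0.938 and 1.03 CPM, at least 13.7-fold. Of the Fcγ receptors, the activating Fcgr1 rose from 81.7, 112 and 120.1 to 301, 333 and 325 CPM (1.61 ± 0.11) and Fcgr4 from 21.9, 19.1 and 15.5 to 58.95, 58.2 and 59.1 CPM. Fcgr3 fell from 125, 119.5 and 101 to 71.4, 74.03 and 75.3 CPM (-0.65 ± 0.09). In 13 myeloid lectins tested, 7 were higher and 1 lower, among them Clec7a (Dectin-1, a β-glucan receptor) at 9.56, 7.79 and 5.94 and 57.4, 51.1 and 56.2 CPM (2.82 ± 0.13).

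Costimulatory and checkpoint genes were higher in 7 of 12 tested and lower in 1 (Cd80). Cd86, a ligand of CD28, went from 3.65, 3.84 and 2.95 to 45.8, 43.4 and 47.8 CPM (3.71 ± 0.10), the checkpoint ligand PD-L1 (Cd274) from 16.3, 14.2 and 14.6 to 145, 123 and 126 CPM (3.12 ± 0.08) and Cd40 from 10.6, 13.4 and 14.9 to 56.2, 61.7 and 60.3 CPM (2.20 ± 0.10). The adhesion molecule Icam1 was at 73.8, 80.9 and 75.0 CPM in PBS and 51.2, 54.7 and 55.5 CPM in SE and was not called. In the Ly6 family and the MHC class III region, 8 of 9 genes tested were higher. Aif1, an actin-binding protein of microglia and macrophages, rose from 1.98, 2.11 and 1.51 to 73.8, 68.3 and 69.4 CPM (5.23 ± 0.12).

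In eicosanoid synthesis the 2 cyclooxygenases moved in opposite directions. Ptgs2, the inducible one, rose from 3.03, 2.89 and 4.46 to 128, 98.7 and 130.4 CPM (5.11 ± 0.28), and Ptgs1, the constitutive one, fell from 3.96, 5.51 and 5.62 to 0.654, 0.502 and 0.513 CPM (-3.16 ± 0.25). The leukotriene enzymes Alox5 (25.3, 39.1 and 41.1 to 7.72, 7.97 and 6.51 CPM, -2.25 ± 0.17) and Ltc4s (10.1, 10.6 and 10.05 to 3.52, 3.01 and 3.44 CPM, -1.62 ± 0.17) fell. Of the 12 genes 3 were higher and 4 lower, beside 12.6% and 10.1% of all genes tested. Among inflammasome and cell death genes 12 of 25 tested were higher and 1 lower. Casp1 rose from 45.1, 38.6 and 37.6 to 109, 101 and 113 CPM (1.41 ± 0.07), the necroptosis effector Mlkl from 19.0, 19.01 and 17.1 to 50.3, 47.5 and 47.9 CPM (1.40 ± 0.07) and the survival gene Bcl2l1 from 74.3, 85.9 and 82.9 to 229.5, 215 and 213 CPM. The survival gene Mcl1 fell from 378, 370.3 and 356 to 196, 188 and 208 CPM (-0.90 ± 0.06). The sensor Nlrp3 was called higher (0.65 ± 0.09) but was 0.55, under the fold threshold, without PBS replicate 1.

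Redox, iron and stress genes were called higher more often than lower. Of 14 targets of the antioxidant factor NRF2, 9 were called higher and none lower (median 0.98). Haem oxygenase (Hmox1) went from 282, 353 and 358 to 1751, 1660.3 and 1630.0 CPM (2.34 ± 0.08), peroxiredoxin 1 (Prdx1) from 723, 615 and 566 to 2217, 2235 and 2289 CPM and the glutathione gene Gclm from 36.3, 34.01 and 26.9 to 132, 138 and 136 CPM (2.06 ± 0.09). Of the phagocyte oxidase only Cybb was called, from 328, 268 and 287 to 657, 563 and 675 CPM, in 6 subunits. Genes of iron export and sequestration rose, with Slc40a1 (ferroportin) at 19.9, 12.6 and 10.99 and 100.3, 86.99 and 94.4 CPM (2.69 ± 0.19), Lcn2 (a siderophore binder) at 10.2, 12.1 and 10.3 and 129.7, 154 and 128 CPM (3.66 ± 0.10) and the phagosomal metal transporter Slc11a1 at 119, 109 and 94.5 and 420.4, 414 and 399.6 CPM. The transferrin receptor Tfrc was called lower (194, 119 and 106 to 77.5, 65.8 and 82.8 CPM, -0.89 ± 0.23), a call that was lost without SE replicate 2 (adjusted p = 0.0628) or PBS replicate 1 (-0.58), which left 1 of 11 iron genes lower in place of 2. In the integrated stress response 8 of 15 tested were higher and none lower, among them Atf3 (91.6, 126 and 156 to 493, 423 and 459 CPM, 1.88 ± 0.17), while the amino acid enzyme Asns was not called.

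Macrophage identity genes held no common direction, with 5 of 17 tested higher and 3 lower (median -0.01). The shares over all genes tested were 12.6% higher and 10.1% lower. Adgre1 (F4/80) rose from 79.5, 64.6 and 72.2 to 206, 175 and 194 CPM (1.41 ± 0.09) and the scavenger receptor Cd36 from 108, 76.6 and 71.7 to 817, 697 and 839 CPM (3.20 ± 0.16). Trem2, a lipid-sensing receptor, fell from 337, 361 and 342 to 109, 117 and 109 CPM (-1.64 ± 0.06). Csf1r, the receptor for CSF1, was lower in every SE library (768, 823 and 812 against 578, 536 and 563 CPM) but under the fold threshold. Of the alternative activation genes, Arg1, Retnla, Chil3, Ccl17, Ccl24 and Cd163 did not pass the low count filter, and 6 of 10 tested were higher. These were Il4ra (4.98, 6.39 and 6.46 to 16.8, 16.5 and 17.04 CPM), Irf4 (6.87, 4.66 and 6.60 to 13.5, 10.5 and 11.7 CPM), Pparg, Klf4, Ccl22 and Fn1, of which Klf4 was 0.52 and under the fold threshold without PBS replicate 1. Mrc1, the mannose receptor, was scarce and lower (2.01, 0.714 and 0.597 to 0.374, 0.134 and 0.241 CPM). Of 11 angiogenic and matrix factors tested 7 were higher and 1 lower: Pgf (placental growth factor) rose from 0.309, 0.714 and 1.33 to 15.9, 12.2 and 13.7 CPM (4.17 ± 0.33), and the protease inhibitor Timp2 fell from 14.6, 11.9 and 9.66 to 2.12, 1.84 and 2.08 CPM. Vegfa (28.7, 47.2 and 52.7 to 74.7, 67.3 and 70.5 CPM) was 0.5 and under the fold threshold without PBS replicate 1.

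Proliferation genes were mostly not called. Of 30 genes of DNA replication and mitosis 2 were higher (Cdt1 and Ccne1) and none lower, beside 12.6% and 10.1% of all genes tested. In this list 1 or 2 became lower without SE replicate 3 (1), PBS replicate 1 (2) or PBS replicate 3 (2). Mki67 was at 174, 157 and 185 CPM in PBS and 163, 139 and 154 CPM in SE (-0.18 ± 0.09), groups that overlapped. Myc, in contrast, rose from 1.33, 2.45 and 4.22 to 33.02, 28.4 and 30.9 CPM (3.55 ± 0.28, adjusted p = 4.15e-06) and the G1 cyclin Ccnd2 from 2.94, 3.37 and 3.86 to 28.5, 25.99 and 27.5 CPM (3.02 ± 0.11). Replication-dependent histone genes, whose mRNA has no poly(A) tail, were lower in 27 of 43 tested, and their sum was 176 to 187 CPM in PBS and 76.8 to 87.3 CPM in SE. Of 18 mitochondrially encoded genes 13 were lower. Both classes were counted after their values were seen. The library kit selects poly(A) RNA, and the part of RNA capture in these values was not tested. The study names calreticulin (Calr) as the receptor of the shared epitope and lists Lrp1 as its co-receptor. Calr was at 3412, 3781 and 3563 CPM in PBS and 3019.5, 3347 and 3085 CPM in SE and was not called, and Lrp1 fell from 665, 796 and 745 to 429, 371 and 389 CPM (-0.89 ± 0.07, adjusted p = 8.05e-08).

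Where the SE libraries differ from those given the other peptide was tested in the same fit, SE against PE, 2 groups labelled with a peptide and IFNγ. Here 936 genes (6.1%) were called, 686 higher in SE (4.47%) and 250 lower (1.63%). The SE group is common to both comparisons, so values are set side by side without a test of overlap. No group carries IFNγ without a peptide on its treatment label, so a rise with SE cannot be told apart from a fall with PE. Ccl5 rose most among the genes with a mean of at least 10 CPM and separate groups, at 68.3, 60.7 and 57.6 CPM in SE and 10.8, 11.3 and 11.2 CPM in PE (2.48 ± 0.09 on the log2 scale, adjusted p = 1.66e-10). Acod1 was at 314, 234 and 304 against 57.01, 60.04 and 65.1 CPM (2.23 ± 0.14). Dmpk, a kinase, was at 18.9, 15.1 and 19.7 against 3.92, 3.19 and 4.21 CPM, with PE near the PBS level of 2.69, 3.91 and 4.57 CPM. The heat shock genes Hspa1a (2.00 ± 0.17) and Hspa1b (1.99 ± 0.16) complete the 5, and being near-identical they may share reads.

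Chemokine ligands were the list most often higher in SE than in PE: 12 of 15 tested were higher and 1 lower, with a median of 1.24 against -0.01 over all genes. Cxcl9 (80.8, 68.4 and 81.99 against 29.1, 24.7 and 20.9 CPM, 1.63 ± 0.11), Cxcl10 (1.23 ± 0.22) and Cxcl2 (77.1, 64.3 and 74.6 against 32.2, 32.9 and 29.5 CPM, 1.19 ± 0.22) were among them. Il1rn was above every PBS library (150.1, 142 and 178 CPM) in SE, at 304, 238 and 295 CPM, and below each of them in PE, at 97.3, 89.03 and 79.3 CPM. Cxcr4 (6.66, 7.32 and 6.57 CPM in PE), Pgf (1.35, 1.24 and 1.81 CPM) and Irf4 (2.47, 3.57 and 3.19 CPM) were higher in SE than in PE by 1.51 ± 0.11, 3.25 ± 0.28 and 1.95 ± 0.17. Of 40 type I interferon genes 13 were higher in SE and none lower, with Irf7 of the signalling list at 278, 278 and 271 against 117, 102 and 95.2 CPM (1.40 ± 0.09). Complement genes (8 of 16), guanylate binding proteins (5 of 11, median 0.45) and osteoclast genes (5 of 17) were called in the same direction, with none lower in SE. Gbp2, for example, was at 245, 204 and 235 CPM in SE and 94.95, 92.2 and 89.8 CPM in PE (1.30 ± 0.07). Mmp9 was at 4.67, 4.52 and 5.13 CPM in SE and 2.43, 2.26 and 2.27 CPM in PE (1.04 ± 0.18), both under PBS.

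Antigen presentation showed no such excess. No MHC class I gene and no immunity-related GTPase was called between the peptides (medians -0.14 and -0.22). Of 17 class II genes, with a median of -0.48, 2 were lower in SE and none higher. These were H2-Ab1 at 347, 389 and 395 against 676, 632 and 607 CPM (-0.76 ± 0.07) and H2-Aa at 587, 603 and 675 against 1009.9, 930.4 and 912 CPM (-0.61 ± 0.06). Ciita (-0.58 ± 0.11) and Cd74 (-0.47 ± 0.08) were below PE in every SE library but under the fold threshold. Irf1 was also lower in SE, at 72.5, 76.8 and 83.02 against 113, 115 and 135 CPM (-0.65 ± 0.07). In the sterol list 6 of 23 were lower in SE and none higher. The largest falls under the rule were Bglap and Bglap2, neighbouring osteocalcin genes that may share reads, at 8.78, 10.5 and 9.23 against 33.9, 33.7 and 43.3 CPM and 16.2, 20.1 and 15.9 against 58.8, 64.04 and 78.95 CPM, both above PBS (3.40, 3.71 and 2.95 and 6.13, 6.63 and 5.59 CPM). Pi16 (-1.54 ± 0.12), Scd2 (-1.31 ± 0.14) and Kbtbd11 (-1.20 ± 0.08) followed.

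**Figure D4:**
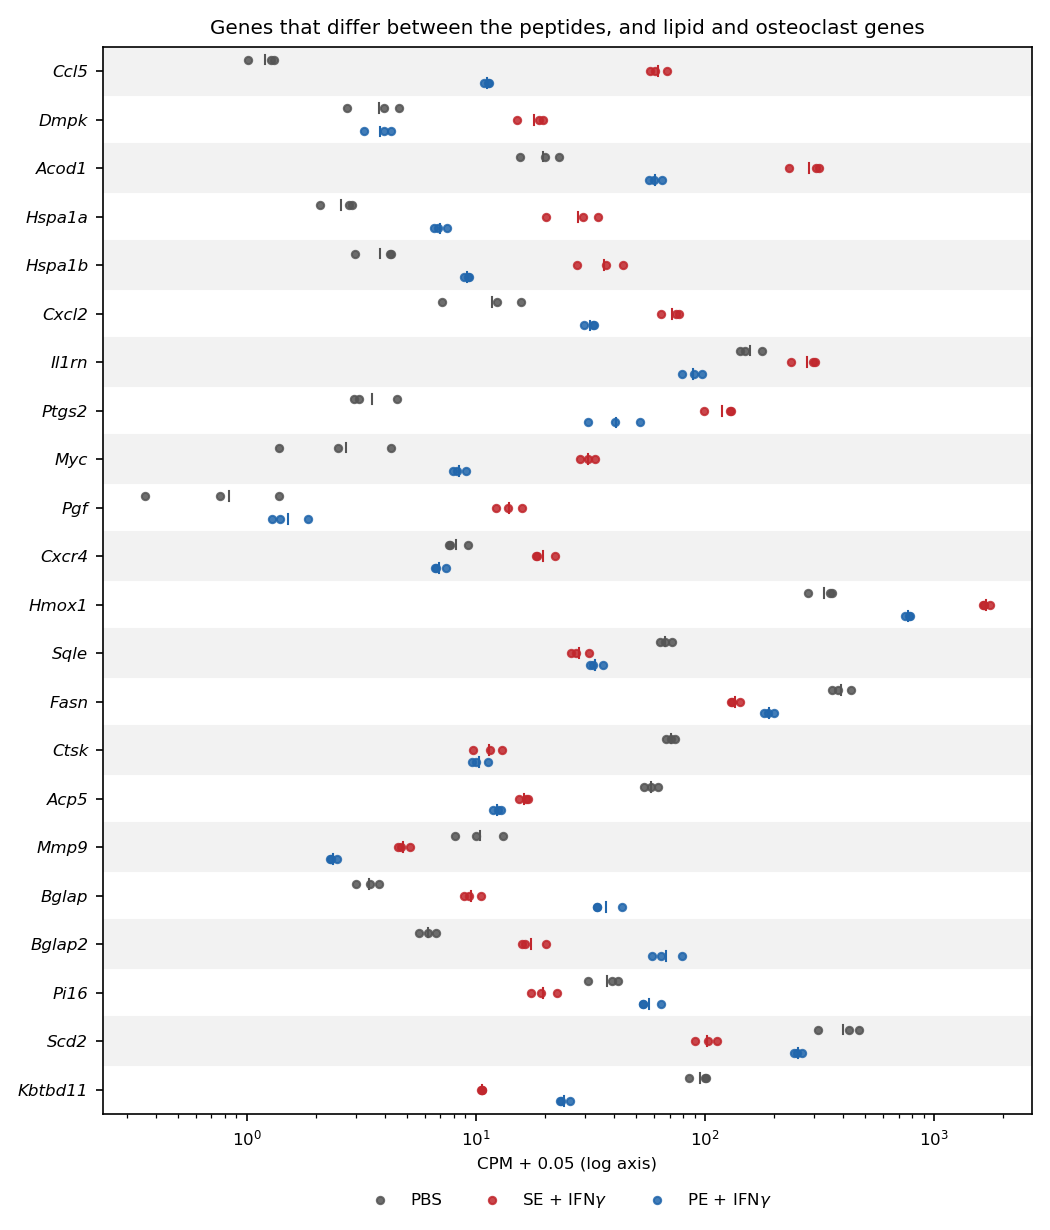
Levels of 22 genes (CPM plus 0.05, log axis) in each library of PBS (grey), SE (red) and PE (blue), with short bars at group means. The genes from Ccl5 to Hmox1 are higher in SE than in PE, the lipid genes Sqle and Fasn are below PBS in both and lowest in SE, and Bglap and Bglap2 are highest in PE.

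Replicates 4 to 6 of the same labels gave a different result, and whether the contrast of SE with PBS differed between the 2 sets was tested over 18 libraries. Of 16845 genes 3799 (22.6%) differed, 1947 with a more positive change in replicates 1 to 3 (11.6%) and 1852 with a more negative one (11.0%). H2-Ab1 was at 0.397, 0.473 and 0.165 CPM in PBS replicates 4 to 6 and 0.476, 0.276 and 0.169 CPM in the libraries labelled SE, scaled over the 18 libraries, a difference between the sets of 10.55 ± 0.52 on the log2 scale (adjusted p = 4.47e-12). Gbp2 was at 0.577, 0.828 and 0.898 and 0.762, 0.883 and 0.778 CPM (8.90 ± 0.35). For both genes the libraries of the 2 labels overlapped there. Nos2 was at 5.21, 8.12 and 25.8 CPM in PBS and 3.19, 2.04 and 1.59 CPM in SE of that set. All 11 guanylate binding proteins, 11 of 17 class II genes and 20 of 23 class I genes had a more positive change in replicates 1 to 3, and 15 of 23 sterol genes a more negative one.

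Some changes were opposite in the 2 sets and some alike. The examples were picked after their values were seen, and such genes were not counted. Tnf and Ccl2 rose in replicates 1 to 3 but fell in replicates 4 to 6. Tnf went from 50.4, 47.9 and 61.3 to 37.1, 30.1 and 32.1 CPM there (-0.69 ± 0.11), and Ccl2 changed by -0.65 ± 0.15 on the log2 scale. A few changes were shared by both sets. Cxcr4 went from 5.81, 5.83 and 2.76 to 11.2, 13.8 and 11.6 CPM in replicates 4 to 6, and the difference between sets was -0.11 ± 0.29 (adjusted p = 0.812). Mmp9 fell from 6.40, 7.49 and 10.3 to 3.81, 2.54 and 2.44 CPM there (0.33 ± 0.27, adjusted p = 0.385). Ctsk was lower in both sets, 49.7, 48.9 and 34.0 against 30.6, 28.5 and 25.8 CPM in replicates 4 to 6, but by less (-2.03 ± 0.17). The sets also differ in RNA content, with 62.09 to 69.9% of counts on protein-coding genes in replicates 4 to 6 against 85.16 to 85.77% in replicates 1 to 3. RNAs without a poly(A) tail were far more abundant there: 7SK, 7SL and the RNAs of RNase MRP and P summed to 146000 to 201000 CPM against 5.74 to 72 CPM, and replication-dependent histones to 2360 to 6290 CPM against 72.2 to 187 CPM. Such levels go against poly(A) selection in replicates 4 to 6, although the methods give the same kit for all libraries, and set and library type cannot be told apart.

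**Figure D5:**
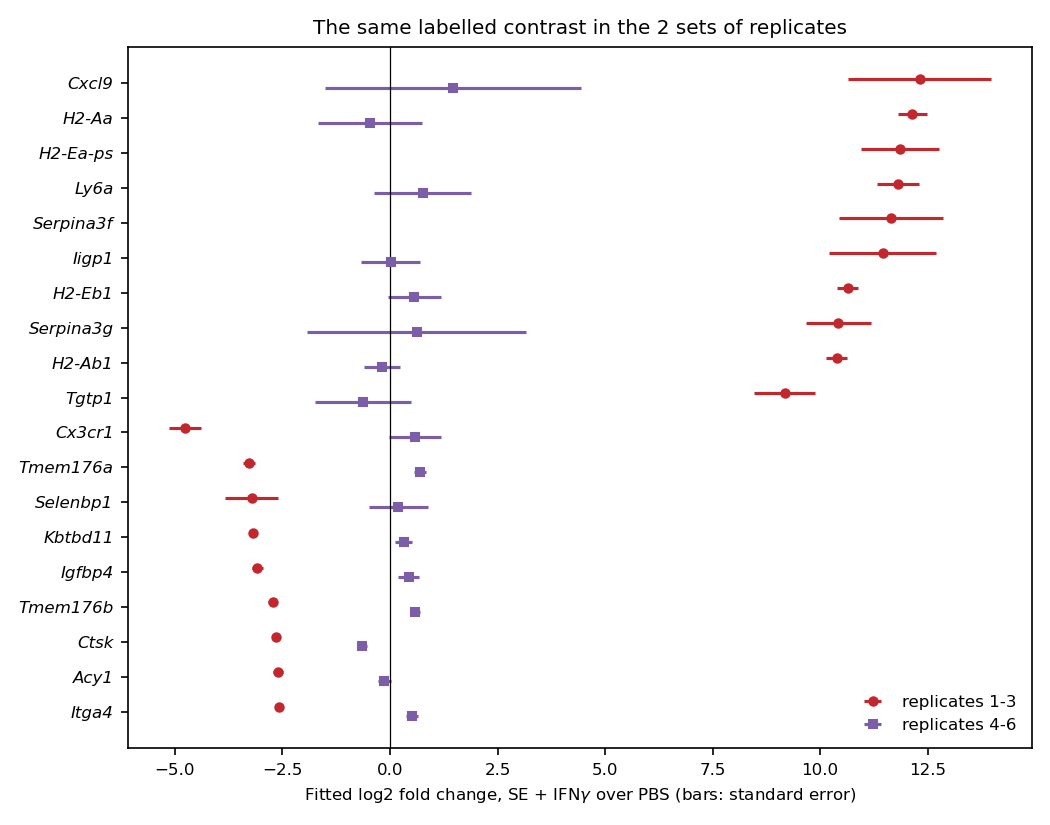
Fitted log2 fold change of SE over PBS, with its standard error as a bar, for the 10 largest rises and 9 of the 10 largest falls, in replicates 1 to 3 (red circles) and replicates 4 to 6 (purple squares). In replicates 4 to 6 the fitted changes of the 9 falls lie between -0.64 and 0.69, and H2-Ea-ps and Serpina3f have no square because 1 group had 0 counts throughout, which leaves no standard error.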

How the data were processed

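The authors made libraries from RAW264.7 RNA with a TruSeq kit that selects poly(A) RNA, to which the RNA content of replicates 4 to 6 runs counter, read them as single ends and counted reads per gene with featureCounts (GENCODE annotation, GRCm38.p5 in the submitters' processing notes). The aligner is not given in the sources used here. The deposited values are whole-number counts per gene and library, not normalized, for 49568 gene names in 18 libraries of the IFNγ series. The table of the IL-4 series was not used. Genes were matched by name to GENCODE M21 (47287 names, 95.4%), and 26 names had been turned into dates. Although the reads are described as uniquely aligned, mt-Nd3 and its nuclear copy Gm28438 held 769 and 770 counts in SE replicate 1 and 7324 and 7331 in PBS replicate 1, so copies can share reads.

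Counts were analysed with edgeR 4.0.16 in R 4.3.3 (TMM, filterByExpr, robust quasi-likelihood fit) over the 9 libraries of replicates 1 to 3, of which 15343 genes passed the filter, with 6 residual degrees of freedom. Standard errors come from the weights of that fit. The thresholds were an adjusted p under 0.05 and a fold over 1.5. CPM values of single genes are TMM-scaled over these 9 libraries, and those of replicates 4 to 6 over all 18. Summed CPM values and the floor of 3 counts are given on library totals, without TMM. The code was tested on simulated data.

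Groups came from the sample labels. Alternatives were RLE factors, library totals, DESeq2 1.42.0, other filters, a replicate block, the 6 libraries alone, leaving out each library, and other thresholds. Named genes were anchors of the 38 lists, the 10 largest rises and falls with a mean of at least 10 CPM and groups that do not overlap, up to 3 called genes per list and direction with a mean of at least 5 CPM, and the 5 largest rises and falls of SE against PE. The members and lists were chosen with earlier results of these data known, and further genes, named as such or to complete a count, after their values were seen. Some genes are not reported here.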

Additional observations from a re-analysis of the deposited data

Results flagged for a closer look

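The contrast of SE with PBS differed between replicates 1 to 3 and replicates 4 to 6 for 3799 genes (edgeR quasi-likelihood test of the difference over 18 libraries), and for most of the genes with the largest changes. Among the rises, the difference was 12.58 on the log2 scale for H2-Aa, 14.24 for H2-Ea-ps, 11.03 for Ly6a, 11.4 for Iigp1, 10.05 for H2-Eb1, 10.55 for H2-Ab1 and 9.77 for Tgtp1. Several of these genes are at or near 0 counts in 3 of the 4 groups, so their sizes depend on the prior count of the fit, and that of H2-Ea-ps, with a group at 0 throughout, has no standard error. Cxcl9, Serpina3f and Serpina3g, at or near 0 in the same groups, were not called (adjusted p = 0.128, 1.000 and 0.0502). Among the falls, the difference was -5.36 for Cx3cr1, -4.0 for Tmem176a, -3.43 for Selenbp1, -3.52 for Kbtbd11, -3.54 for Igfbp4, -3.33 for Tmem176b, -2.03 for Ctsk, -2.5 for Acy1 and -3.13 for Itga4. In the libraries labelled SE, replicates 4 to 6, H2-Aa was at 0.191, 0 and 0 CPM, beside 0.0361, 0.276 and 0.0236 CPM in their PBS.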

How the results depend on the processing

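The 3484 calls of SE against PBS ranged from 2760 (protein-coding genes only) to 3751 (no low count filter) over RLE factors, library totals, DESeq2, other filters, the 6 libraries alone and a replicate block, and from 3298 to 3590 without any 1 of the 9 libraries. Other thresholds moved the counts: a fold over 2 left 1768 called, 1190 higher and 578 lower, with 352 in SE against PE and 2067 in the difference between sets, and an adjusted p alone gave 7489, 3728, 3761, 3678 and 5965. SE against PE gave 716 to 1070 and the difference between sets 3392 to 3899 without any 1 library. A minimum of 10 counts in every library removes genes that are silent in PBS, which left 3 of the 11 class II genes, 7 of the 11 guanylate binding proteins, 4 of the 10 immunity-related GTPases, 8 of the 13 chemokine ligands, 9 of the 14 cytokines, 4 of the 9 complement genes and 3 of the 8 Ly6 and class III genes called higher. On library totals without TMM 1768 genes were higher and 1787 lower, with 2 replication genes and 4 G1 genes lower in place of 0 and 2. At the main thresholds, 214 named genes were called in SE against PBS. Over 17 alternative fits at these thresholds, 203 of them were called in every fit that tested them. The call was lost for 11 in at least 1 fit, and 0 changed sign. Other thresholds were not applied to the named genes. Replicate numbers paired the libraries weakly at most. Correlations of same-numbered SE and PBS deviations were 0.13, 0.134 and 0.00459, and those of other SE and PBS pairs ran from -0.17 to 0.0733. With a replicate block 3438 genes were called, 1915 higher and 1523 lower. Counts of 3 or fewer in a group limit a fold to a lower bound.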

Other observations

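Several chromosome windows held many called genes, and clustering itself was not tested. Of 28 genes tested in chromosome 1, 85000001 to 86000000 (GRCm38), 23 were higher in SE, among them the nuclear body genes Sp100, Sp110 and Sp140. Many of the 23 are predicted copies that may share reads. All 10 genes tested in chromosome 6, 129000001 to 130000000, which holds Clec7a, Clec9a, Clec12a, Cd69 and Klrk1, and all 8 tested in chromosome 7, 106000001 to 107000000, around the very large GTPase Gvin1, were higher, as were 12 of 15 in chromosome 1, 173000001 to 174000000 (the Ifi200 family). These windows and the genes that follow were chosen after their values were seen. The receptor genes Slamf7 (1.64, 1.70 and 2.14 to 48.7, 43.5 and 47.7 CPM) and Slamf8 (1.39, 2.01 and 1.23 to 129, 99.6 and 117 CPM) and Klrk1 (NKG2D, 0.0309, 0.0680 and 0 to 5.85, 4.92 and 5.64 CPM, at least 54.7-fold) rose, as did the uridine phosphorylase Upp1 (0.186, 0.170 and 0.386 to 61.8, 49.6 and 62.8 CPM, 7.87 ± 0.32). Upp1 was also higher in SE than in PE (19.3, 17.8 and 17.9 CPM, 1.66 ± 0.10), as was the phosphatase Dusp1 (61.5, 51.4 and 58.95 against 17.4, 16.96 and 16.1 CPM, 1.77 ± 0.11). Among falls outside the lists, the mTOR inhibitor Deptor went from 15.4, 8.26 and 7.34 to 0.654, 0.569 and 0.633 CPM, the oxysterol receptor Gpr183 from 30.01, 30.7 and 30.7 to 6.13, 5.59 and 6.33 CPM and the cytosolic dehydrogenase Idh1 from 165, 156 and 142 to 39.4, 41.2 and 45.7 CPM (-1.87 ± 0.07).

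Immunoglobulin heavy chain genes were counted in this macrophage line. Ighm was at 21.6, 25.9 and 29.2 CPM in PBS, 121, 128 and 130.1 CPM in SE and 191, 167 and 155 CPM in PE (SE against PBS 2.31 ± 0.10, adjusted p = 4.11e-10). Reads counted on Ighg2c of the reference, which is of another strain than this line, were at 0.124, 0.0340 and 0.0351, 5.45, 4.59 and 4.95 and 0.574, 0.372 and 0.526 CPM in the same order. They differed between the peptides by 3.34 ± 0.25 (adjusted p = 1.47e-07). The 5 B cell markers of the list summed to at most 0.376 CPM in any of the 9 libraries. Of other marker genes, Mpo (0.186, 0.102 and 0.0351 to 0.965, 0.670 and 0.513 CPM), Ngp (0, 0 and 0 to 0.342, 0.368 and 0.573 CPM) and Pdgfra (0.248, 0.306 and 0.316 to 0.809, 0.603 and 1.42 CPM) were called higher and Cd4 (0.495, 0.612 and 0.422 to 0.0311, 0.134 and 0.151 CPM) lower, all at low levels. Kdr was called higher (0.96 ± 0.32), which was lost without SE replicate 3 (0.61), PBS replicate 1 (0.81) or PBS replicate 2 (0.93).

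Mitochondrial transcripts did not fall alike. The transcript mt-Cytb went from 3783, 3066 and 3222 to 847, 792 and 898 CPM (-1.99 ± 0.08), mt-Nd1 from 2065, 1401 and 1483 to 430.4, 444 and 546 CPM and mt-Nd3 from 227, 116 and 122 to 23.9, 30.3 and 42.3 CPM, highest in the first PBS library. The most abundant, mt-Co1, was at 11001, 9111 and 9656 CPM in PBS and 10077, 8921 and 10516 CPM in SE (-0.01 ± 0.08, adjusted p = 0.915). RNA capture, the PBS library that stood apart and read sharing with nuclear copies were not tested as part of this difference.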
